A study of Rattus norvegicus with 12 samples.

Results

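The genes described here are the p53 pathway and its target genes in rat aortic smooth muscle cells. They were chosen as a list of 33 symbols, with earlier results of these data known. Of the 33, 31 are rows of the deposited table of 22081 genes. Of these, 30 had enough reads to be tested among 14825 tested genes. Perp, a p53 target of desmosomes, stayed below the read filter with 0 to 12 exon reads per library, and Bbc3 and Tnfrsf10b are not analysed here.

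RNA sequencing compared 4 groups of 3 libraries of primary Wistar rat aortic smooth muscle cells. WT cells had an intact Thbs1 gene, which encodes the matrix protein thrombospondin-1 (Tsp1), and Tsp1 KO cells had it mutated by Cas9. Each genotype was either kept static or given uniaxial cyclic stretch of 20% strain at 1.0 Hz. All cells were at passages 5 to 8 in medium with 20% serum, serum starvation for 24 h is stated for the stretched cells, and the length of stretching is not given. No starvation is stated for the static cells, so stretch and starvation cannot be told apart if only the stretched cells were starved. KO cells had been transfected with a Cas9 plasmid that also carried GFP and the guide, sorted as GFP-positive cells and cloned from single cells, and the number of clones is not given. No such steps are stated for the WT cells, so loss of Tsp1, the editing steps and clonal origin cannot be told apart here. Whether the 3 libraries per group are separate cultures is not stated, so the p-values cover the spread of these libraries only, and that spread may be technical.

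The transcription factor p53 is kept at a low level by the ubiquitin ligase Mdm2, which is itself a p53 target. DNA damage, oncogene activity and ribosome stress weaken that hold, and p53 then switches on genes for cell cycle arrest, DNA repair, metabolism, autophagy and cell death. In vascular smooth muscle, p53 and its target p21 are best known for restraining growth and for senescence. Many of these genes can also be raised without p53, so a transcript level is not a measure of p53 activity.

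p53 binds DNA as a tetramer on paired copies of a consensus of 10 letters, and some targets carry such a pair close to their start. Windows of 300 bases, from 250 before to 50 after the gene's start (RefSeq, build GRCr8), were found for 25 of the 31 genes. The consensus decamer by name, searched on its own and reading the same on both strands, was in 7 of the 25 windows (28.0%), against 7.89% of 27457 windows of all genes. A run of 20 letters, 2 adjacent decamers with at most 3 letters off and each central C and G kept, was in 6 of the 25 windows (24.0%) against 1.39% of all windows. Of the 6 runs, those in Pidd1 and Pmaip1 hold no exact decamer, and the others hold one already counted. The windows of 4 of those genes are printed, 3 that rose in KO static cells below (the arrest genes Cdkn1a and Ccng1 and the death gene Aen) and the death gene Pmaip1, which fell. Capitals mark the 20 letters.
Cdkn1a, chr20:7150682-7150981, strand +: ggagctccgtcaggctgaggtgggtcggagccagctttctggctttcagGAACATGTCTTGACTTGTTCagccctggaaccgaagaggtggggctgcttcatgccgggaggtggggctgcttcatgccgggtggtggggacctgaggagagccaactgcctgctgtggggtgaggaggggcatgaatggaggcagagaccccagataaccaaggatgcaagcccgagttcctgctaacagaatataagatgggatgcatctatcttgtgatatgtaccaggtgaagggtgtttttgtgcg
Ccng1, chr10:25684827-25685126, strand -: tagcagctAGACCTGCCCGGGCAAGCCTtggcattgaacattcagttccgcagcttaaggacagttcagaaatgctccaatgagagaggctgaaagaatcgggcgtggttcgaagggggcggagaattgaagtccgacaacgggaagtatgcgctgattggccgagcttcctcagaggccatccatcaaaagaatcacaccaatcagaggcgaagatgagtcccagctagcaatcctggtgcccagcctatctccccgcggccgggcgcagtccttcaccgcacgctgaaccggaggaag
Aen, chr1:142224283-142224582, strand +: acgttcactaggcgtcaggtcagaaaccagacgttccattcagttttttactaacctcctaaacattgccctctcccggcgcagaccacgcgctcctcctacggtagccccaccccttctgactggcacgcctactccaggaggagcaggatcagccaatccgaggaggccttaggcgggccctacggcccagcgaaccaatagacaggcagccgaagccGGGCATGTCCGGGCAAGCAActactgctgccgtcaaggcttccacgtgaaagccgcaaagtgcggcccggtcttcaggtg
Pmaip1, chr18:62255720-62256019, strand +: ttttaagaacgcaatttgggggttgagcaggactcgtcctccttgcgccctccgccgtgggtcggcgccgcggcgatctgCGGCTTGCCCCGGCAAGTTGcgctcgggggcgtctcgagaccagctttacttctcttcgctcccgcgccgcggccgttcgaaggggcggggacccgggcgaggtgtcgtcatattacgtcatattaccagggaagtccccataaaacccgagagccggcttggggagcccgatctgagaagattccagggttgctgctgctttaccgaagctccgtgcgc
Counted from the first transcribed base as 0, the capitals lie at -201 to -182 in Cdkn1a and -242 to -223 in Ccng1, each 1 letter off the consensus. They lie at -30 to -11 in Aen, 2 letters off, and at -170 to -151 in Pmaip1, 3 letters off. The other 2 genes with such a run were Pidd1 and Sesn1, both called as rises in KO static cells, Pidd1 with the limit given below. A match is a description of letters and no evidence of binding.

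The libraries held 16766965 to 38024110 exon reads. Thbs1 itself stood at 3180, 2710 and 2090 counts per 1000000 reads (CPM) in WT static and at 588, 637 and 443 in KO static, a log2 fold change of -2.26 (edgeR FDR 3.96e-05), and it was -1.92 under stretch (FDR 0.000129). In both conditions every KO library was below every WT library. The libraries numbered 3 stood apart in every group: introns took 9.15% to 11.3% of their gene reads, against 14.8% to 16.5% in the others, and KO stretch 3 had junction reads in 16.4% of exon reads against 28.1% to 29.8% elsewhere. The smooth muscle list of 10 genes summed to 4440 to 5240 CPM in WT static, 3760 to 4580 CPM in KO static, 5010 to 6130 CPM in WT stretch and 3200 to 4090 CPM in KO stretch, so that WT and KO overlapped in static cells and KO was lower in stretched cells. Its members moved both ways: from WT to KO static, mean Acta2 went from 2170 to 1260 CPM, Lmod1 from 141 to 86.4 CPM and Synpo2 from 11.7 to 147 CPM. The fibroblast list of 7 genes summed to 319 to 344 CPM in WT and 899 to 1260 CPM in KO libraries, mostly through Col14a1 (32.1 CPM in WT static, 685 CPM in KO static), while Dcn was under 1 CPM in every group. Fap and Lum were also higher in KO static, while mean Pdgfra went from 51.8 to 33.7 CPM and mean Dpt from 0.611 to 0.168 CPM. The epithelial list of 5 genes summed to 22.2 to 29.8 CPM in WT and 31.1 to 53.2 CPM in KO, with Epcam, Krt18 and Krt19 under 1 CPM in each group. The mesothelial list of 4 genes summed to 7.63 to 12.3 CPM in WT and 19.8 to 23.3 CPM in KO. Its members Msln, Upk3b and Lrrn4 were higher in KO static than in WT static, while mean Wt1 went from 1.13 to 0.392 CPM. The endothelial list summed to 4.56 to 12.9 CPM, with Cldn5 at 0, and the leukocyte list to 1.68 to 3.38 CPM. The part of these marker differences in the KO results below was not tested.

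In WT static cells the genes differed widely in level per length. Phlda3, an inhibitor of Akt signalling, was highest at 106 ± 16.5 RPKM (reads per kilobase of exon and 1000000 reads; SD, n = 3). Ccng1 (cyclin G1) followed at 71.2 ± 2.76 RPKM, Cdkn1a at 55.0 ± 5.60 RPKM and Tp53inp1 at 52.7 ± 15.1 RPKM. The last 2 did not differ beyond their spread. Gdf15 was at 1.27 ± 0.236 RPKM, the row named Tp53i3 at 0.707 ± 0.00828 RPKM and Perp lowest at 0.0546 ± 0.0126 RPKM.

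Most p53 target genes were higher in Tsp1 KO than in WT static cells. Of the 30 tested genes, 17 rose and 3 fell at an FDR under 0.05 (Benjamini-Hochberg over all tested genes), which is 66.7% against 20.8% of all tested genes. The rises alone stand against 12.1% of all genes and the falls against 8.66%. As the list was chosen with earlier results of these data known, these shares describe it and do not test an excess. The median log2 fold change of the 30 genes was 0.72, and over all tested genes it was 0.01. In these bulk samples, a change in the share of cells that make a transcript and a change in its amount per cell cannot be told apart. In 20 genes every KO library was above every WT library (18.9% of all genes), and in 3 every KO library was below (15.9%).

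**Figure D1:**
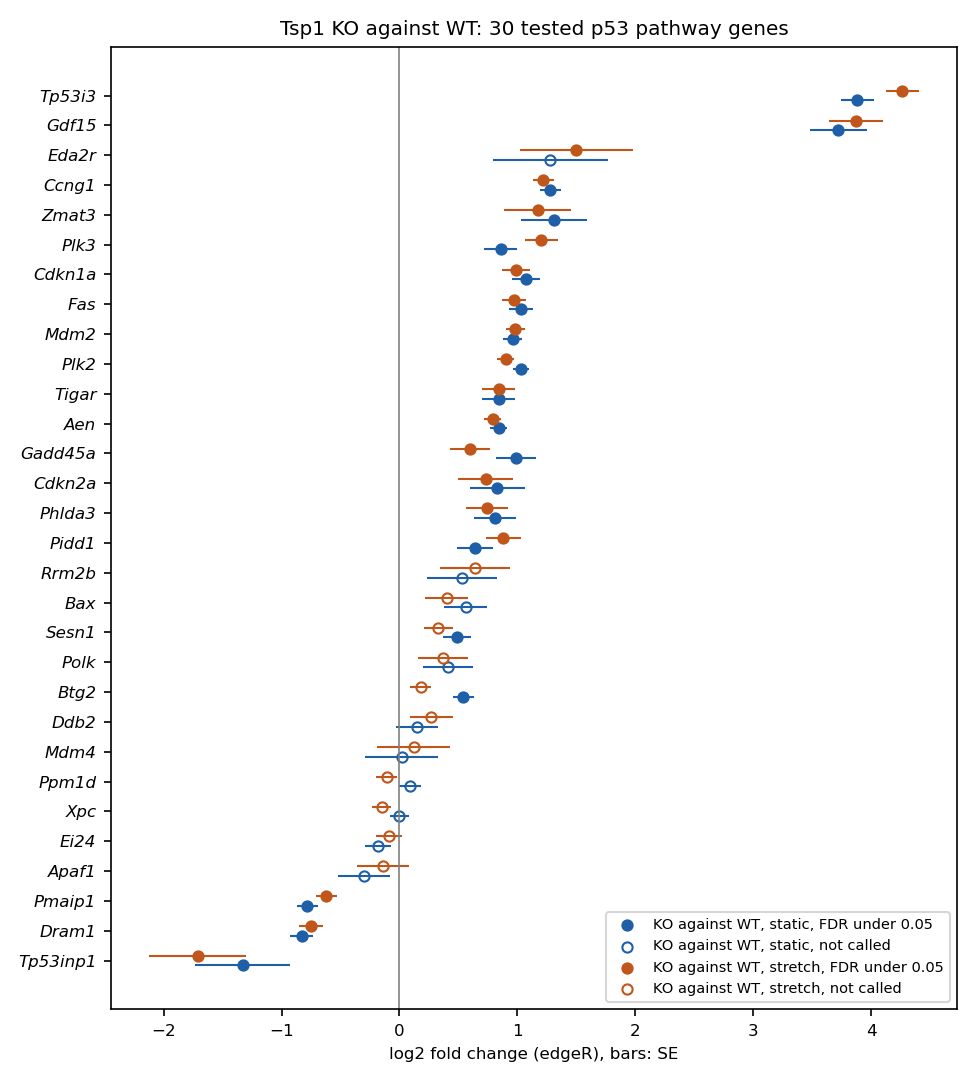
Log2 fold change of KO against WT (x axis; bars are SE, 3 libraries per group) for the 30 tested genes, in static cells (blue) and stretched cells (orange), with filled points at edgeR FDR under 0.05. Most points lie right of 0, Tp53i3 and Gdf15 lie farthest right, and Pmaip1, Dram1 and Tp53inp1 lie left in both conditions.

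Mdm2 (ENSRNOG00000006304, chromosome 7 from 60719065 to 60743328 in Rnor_6.0) makes the ligase that marks p53 for destruction. It stood at 99.6, 112 and 98.9 CPM in WT static and at 196, 208 and 198 CPM in KO static. The groups were far apart and tight, with a log2 fold change of 0.96 ± 0.08 (SE; FDR 6.47e-06). Its partner Mdm4, which blocks p53's activation domain, was at 38.6, 35.4 and 22.3 CPM in WT static and at 38.4, 35.9 and 23.1 CPM in KO static. The Mdm4 groups overlapped almost completely (log2 fold change 0.02 ± 0.31, FDR 0.984). Ppm1d, the phosphatase Wip1 that switches the damage signal off, also overlapped between the groups (0.09 ± 0.09, FDR 0.588).

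Cdkn1a (ENSRNOG00000000521, chromosome 20 from 6351457 to 6358864) makes p21, the cyclin-dependent kinase inhibitor, and stood at 139, 138 and 154 CPM in WT static and 271, 296 and 338 CPM in KO static. The lowest KO library was well above the highest WT library (log2 1.07 ± 0.12, FDR 7.14e-05). Ccng1 (ENSRNOG00000003256, chromosome 10 from 25903910 to 25910325) stood at 310, 325 and 294 CPM in WT static and 786, 794 and 677 CPM in KO static. All KO values were above all WT values, with a log2 fold change of 1.28 ± 0.09 (FDR 1.64e-06). Plk2 (ENSRNOG00000011951), a stress-induced kinase of the polo family, went from 83.8, 78.8 and 80.1 CPM to 165, 170 and 159 CPM. These 3 KO values lay close together and clear of WT (1.03 ± 0.07, FDR 1.8e-06). Its relative Plk3 rose by 0.86 ± 0.14 (FDR 0.000811), the growth arrest and damage gene Gadd45a by 0.99 ± 0.17 (FDR 0.00142) and the antiproliferative gene Btg2 by 0.54 ± 0.09 (FDR 0.00163). Cdkn2a encodes the inhibitor p16 and, in another reading frame, Arf, which restrains Mdm2, and its row does not separate the 2 products. It stood at 41.1, 43.9 and 54.8 CPM in WT static and 69.4, 73.2 and 106 CPM in KO static. Library 3 was highest in each group, yet the groups did not overlap (0.83 ± 0.23, FDR 0.0237). Without WT static 1, WT static 2 or KO static 3 the FDR missed the threshold (highest 0.0966), and it also missed in limma on RPKM.

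The largest rises were in a secreted protein and in a poorly expressed row. Gdf15 (ENSRNOG00000019661, chromosome 16 from 20555394 to 20557978) makes growth differentiation factor 15, a stress cytokine, and stood at 1.53, 1.32 and 1.79 CPM in WT static and 18.5, 19.6 and 23.6 CPM in KO static. It was near the bottom of the range in all WT libraries and clearly expressed in all KO libraries, a 13.2-fold difference (log2 3.72 ± 0.24, FDR 7.32e-07). The row named Tp53i3 (ENSRNOG00000005177, chromosome 13 from 75105614 to 75143441) went from 1.57, 1.5 and 1.46 CPM to 21.9, 20.3 and 24.7 CPM. No KO value came near a WT value, and the fold was 14.7 (log2 3.88 ± 0.14, FDR 1.64e-08). RefSeq's rat annotation places the gene Tp53i3, a quinone oxidoreductase of the p53 response, on chromosome 6 and gives that name as a synonym of Cryzl2 on chromosome 13, so this row may be Cryzl2.

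Fas (ENSRNOG00000019142, chromosome 1 from 252589784 to 252624790), the death receptor, went from 33.7, 33.2 and 33.2 CPM in WT static to 67.2, 64.2 and 72.9 CPM in KO static. Both sets were tight and apart (1.03 ± 0.10, FDR 1.57e-05). Zmat3 (ENSRNOG00000010119), a zinc finger RNA-binding protein, stood at 13.2, 12.7 and 8.86 CPM in WT static and 32.2, 33.7 and 20.6 CPM in KO static. Library 3 was lowest in each group, and the groups stayed apart (1.31 ± 0.28, FDR 0.00554). Aen, an apoptosis nuclease, rose by 0.84 ± 0.07 (FDR 7.4e-06) and Phlda3 by 0.81 ± 0.18 (FDR 0.00659). Pmaip1 (ENSRNOG00000018770), which makes the BH3-only protein Noxa, moved the other way, from 133, 144 and 136 CPM to 83.0, 85.8 and 71.4 CPM. All KO values were below all WT values (-0.78 ± 0.09, FDR 5.92e-05).

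Bax (ENSRNOG00000020876), the pore-forming killer of the BCL2 family, stood at 60.7, 65.2 and 75.4 CPM in WT static and 87.9, 89.0 and 119 CPM in KO static. The groups did not overlap, but library 3 was high in each, and the log2 fold change of 0.56 ± 0.18 missed the threshold (FDR 0.0538). With the library number as a block the FDR was 1.34e-05. Eda2r, the receptor of ectodysplasin A2, likewise did not pass at 1.28 ± 0.49 (FDR 0.0943), and did with the block (FDR 9.38e-07). The 3 Eda2r values were 12.7, 11.5 and 6.28 CPM in WT static and 31.2, 29.9 and 13.1 CPM in KO static, with library 3 low in both groups. Apaf1, the core of the apoptosome, and Ei24, a membrane protein of the endoplasmic reticulum, overlapped between the groups (-0.30 ± 0.22, FDR 0.43, and -0.18 ± 0.11, FDR 0.31). With the block both passed as lower (FDR 0.0281 and 0.0146). Pidd1, a death-domain protein that activates caspase-2, rose by 0.64 ± 0.15 (FDR 0.00964), but only 20.6% of its exon reads were uniquely mapped and on these the FDR was 0.0879, so its value is uncertain.

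Tp53inp1 (ENSRNOG00000007964, chromosome 5 from 24410862 to 24416888), a stress protein of autophagy and cell death, fell the most of the 30 genes, from 85.8, 85.8 and 46.1 CPM in WT static to 34.5, 34.2 and 18.1 CPM in KO static. Library 3 was low in each group and the groups did not overlap (-1.33 ± 0.40, FDR 0.0366). Leaving out WT static 1 or 2, or any KO static library, ended the call (highest FDR 0.12). Dram1, a lysosomal protein that promotes autophagy, fell by 0.83 on the log2 scale (SE 0.10, FDR 8.37e-05). Tigar, which lowers glycolytic flux, rose by 0.84 ± 0.14 (FDR 0.00115), and Sesn1, an inhibitor of mTORC1 signalling, rose by 0.49 ± 0.12 (FDR 0.00988). Xpc and Ddb2, which recognise damage in nucleotide excision repair, differed by -0.00 ± 0.08 (FDR 0.995) and 0.15 ± 0.18 (FDR 0.654). Rrm2b, the p53-inducible ribonucleotide reductase subunit, differed by 0.53 ± 0.30 (FDR 0.271) and the bypass polymerase gene Polk by 0.41 ± 0.21 (FDR 0.236), and both passed as higher with the block (FDR 0.0218 and 0.0429).

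**Figure D2:**
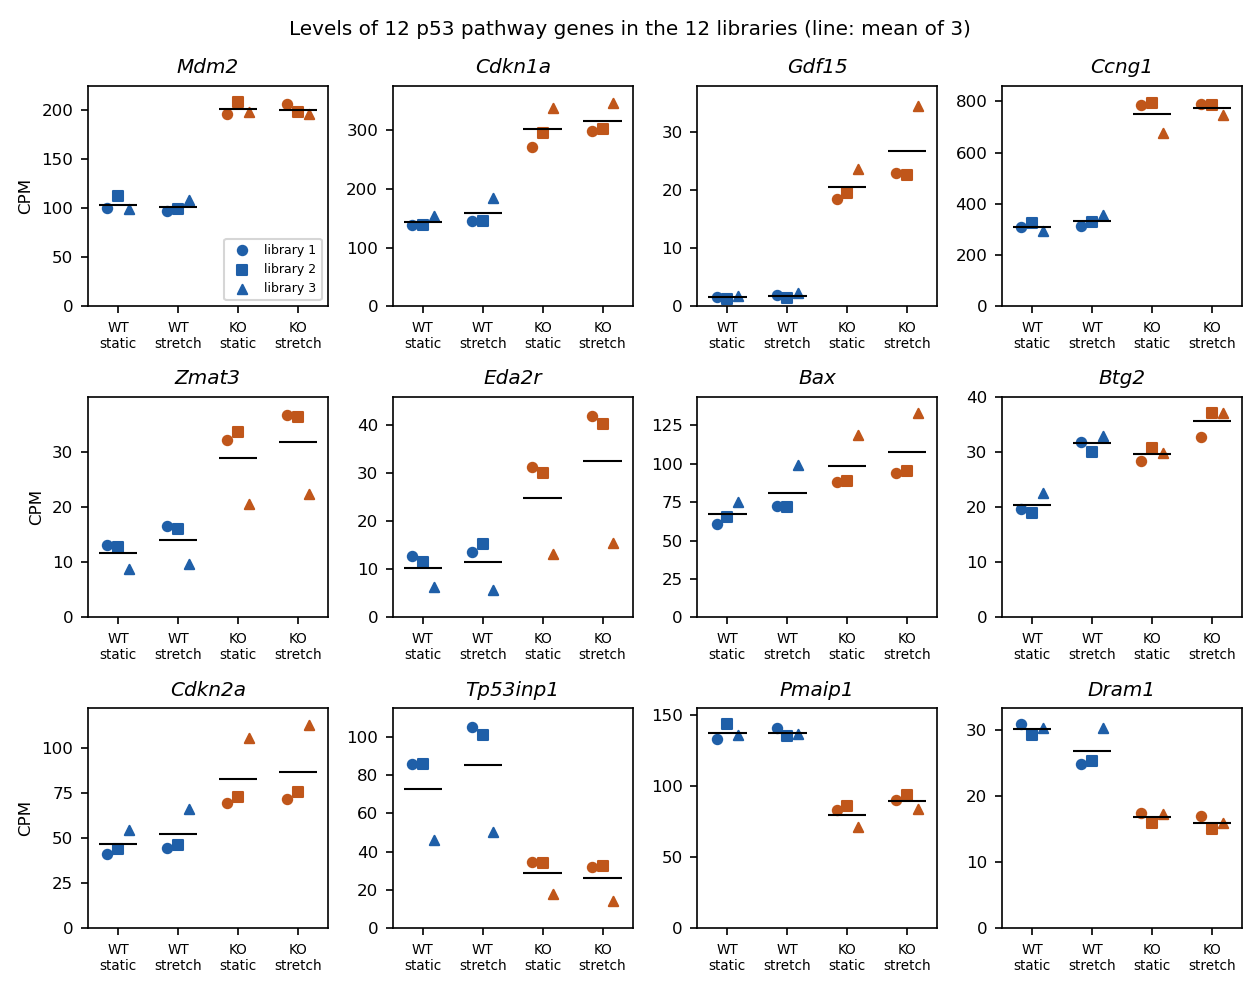
CPM (y axis, from 0) of 12 of the genes in each library, by group; circles, squares and triangles are libraries 1, 2 and 3, WT in blue, KO in orange, and the line is the mean of 3. Mdm2, Cdkn1a, Gdf15 and Ccng1 are higher in every KO library, Pmaip1 and Dram1 are lower, and library 3 lies low for Zmat3, Eda2r and Tp53inp1 and high for Bax and Cdkn2a.

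The same comparison in stretched cells used other libraries. Whether the static and stretched KO libraries come from the same clone is not stated. It gave 16 rises and 3 falls among the 30 genes (63.3% against 20.6% of all tested genes; rises 11.9% and falls 8.73% of all), with a median log2 fold change of 0.68 against -0.00 over all genes. In 17 genes every KO library was above every WT library (18.2% of all genes), and in 4 every KO library was below (15.4%). In both conditions 15 genes rose (9.98% of all tested genes did so) and 3 fell (6.87% of all did). With the block 21 genes were higher and 5 lower in static cells (37.6% of all tested genes were called) and 19 and 3 in stretched cells (37.3%). Without it, Btg2 and Sesn1 passed only in static cells and Eda2r only in stretched cells, and the test of the difference, given below, called none of these.

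Mdm2 stood at 97.5, 98.8 and 108 CPM in WT stretch and 206, 198 and 196 CPM in KO stretch, almost the static values (0.98 ± 0.08, FDR 5.29e-06). Cdkn1a stood at 145, 145 and 185 CPM in WT stretch and 299, 302 and 347 CPM in KO stretch (0.99 ± 0.12, FDR 0.000123). Ccng1 stood at 313, 329 and 355 CPM and at 791, 787 and 748 CPM (1.22 ± 0.09, FDR 2.38e-06). For each of these 3 genes the lowest KO library was above the highest WT library. Gdf15 went from 1.87, 1.36 and 2.24 CPM to 23.0, 22.7 and 34.5 CPM, 14.7-fold (3.87 ± 0.23, FDR 4.3e-07). The row named Tp53i3 went from 1.10, 0.893 and 1.19 CPM to 18.9, 20.2 and 22.2 CPM, 19.2-fold (4.26 ± 0.14, FDR 8.04e-09). Both were low in all WT libraries and rose again by more than any other gene of the list.

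Plk3 went from 5.77, 6.07 and 5.77 CPM in WT stretch to 13.5, 12.3 and 14.7 CPM in KO stretch, with no overlap (1.20 ± 0.14, FDR 6.2e-05). Zmat3 went from 16.5, 16.1 and 9.65 CPM to 36.7, 36.3 and 22.3 CPM, with library 3 low in each group (1.17 ± 0.28, FDR 0.00989). Tp53inp1 went from 105, 101 and 50.5 CPM to 32.1, 32.6 and 14.1 CPM (-1.71 ± 0.41, FDR 0.0104). Its groups did not overlap. Eda2r went from 13.5, 15.3 and 5.63 CPM to 41.8, 40.2 and 15.4 CPM, where KO library 3 lay just above the WT range (1.5 ± 0.48, FDR 0.0492). Eda2r lost its call when any of 9 of the 12 libraries was left out (highest FDR 0.151). Bax stood at 72.6, 71.7 and 99.1 CPM and at 93.7, 95.3 and 133 CPM, and these groups overlapped through library 3 (0.40 ± 0.18, FDR 0.165; with the block 0.000162).

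Cdkn2a stood at 44.9, 46.3 and 66.3 CPM in WT stretch and 72.0, 75.8 and 113 CPM in KO stretch, just apart (0.73 ± 0.23, FDR 0.0439). It missed the threshold when any of 8 libraries was left out (highest FDR 0.196). With all libraries kept, it also missed under both other scalings, without the read filter and in limma on RPKM. Gadd45a rose by 0.60 ± 0.17 (FDR 0.026), and lost its call without WT stretch 1 or 2 or KO stretch 2 or 3 (highest FDR 0.168). Its call was also lost with upper-quartile scaling. Phlda3 rose by 0.74 ± 0.18 (FDR 0.0103), and lost its call without WT stretch 2 (FDR 0.0825). The remaining rises were Fas (0.97), Plk2 (0.90), Pidd1 (0.88, FDR 0.449 on uniquely mapped reads), Tigar (0.84) and Aen (0.79), and the remaining falls were Dram1 (-0.75) and Pmaip1 (-0.62). Rrm2b and Sesn1 missed the threshold and passed with the block (FDR 0.00798 and 0.0213), and Rrm2b also passed in libraries 1 and 2 alone (FDR 0.0159).

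**Figure D3:**
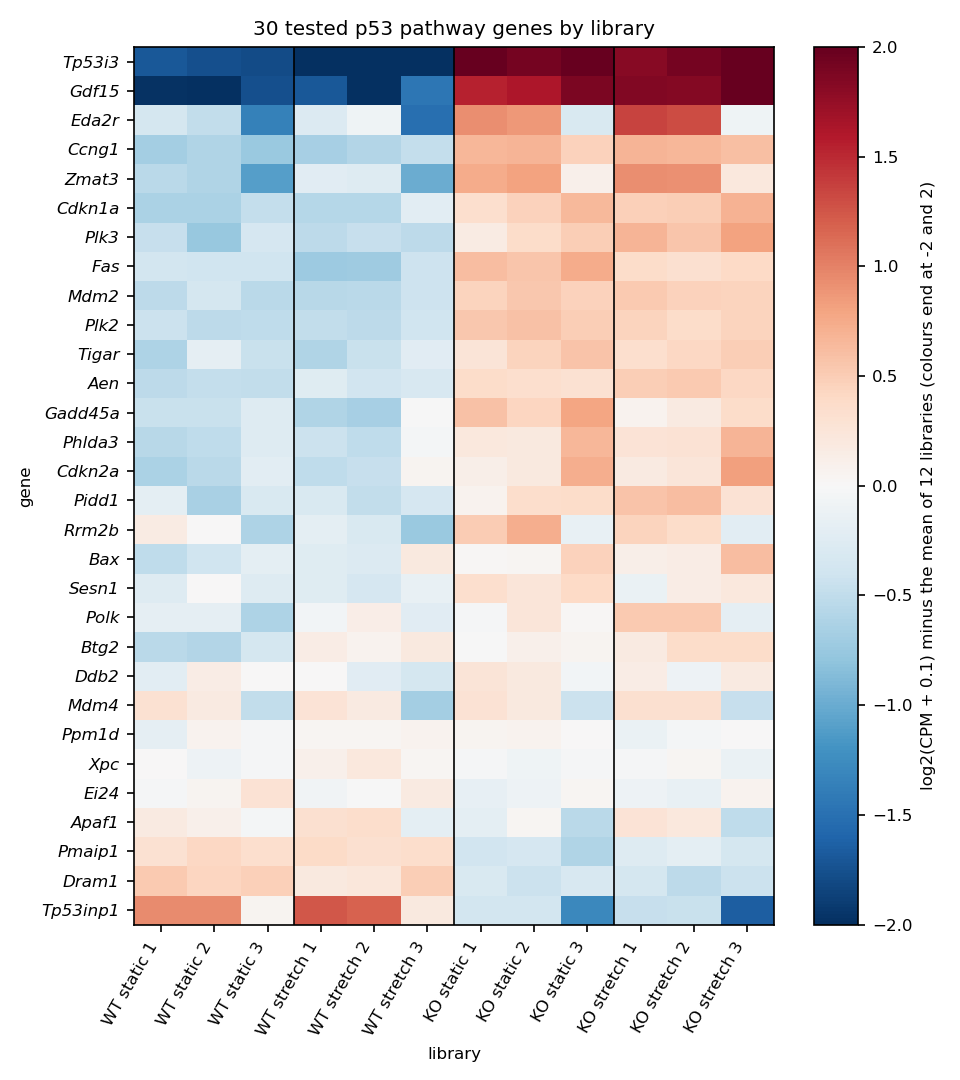
Log2(CPM + 0.1) of each of the 30 genes (rows) in each library (columns, by group), minus the mean of the 12 libraries; red is higher and blue lower, and colours end at -2 and 2. The upper rows turn from blue in the 6 WT libraries to red in the 6 KO libraries, the lowest 3 rows turn the other way, and the third column of each group differs from its neighbours for Eda2r, Zmat3, Mdm4 and Tp53inp1.

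Reads in introns, which come largely from transcripts not yet spliced, were looked at as another readout of the same libraries. Mdm2 had 20.3, 18.9 and 13.8 intron CPM in WT static and 39.9, 43.4 and 25.1 intron CPM in KO static. The groups did not overlap, and the ratio of means was 2.04, as it was under stretch. Cdkn1a had intron ratios of 2.15 and 2.03, and Gdf15 of 15.6 and 10.2, without overlap in either condition. Tp53inp1 was lower, at ratios of 0.423 and 0.351, also without overlap. In static cells intron levels did not overlap and were higher in KO for 11 of the 30 genes (6.71% of 12518 genes with at least 5 intron reads in every library) and lower for 1 (6.89%). In stretched cells they were higher for 6 (4.97%) and lower for 2 (6.34%). Of the genes whose exon reads rose, 16 of 17 had an intron ratio above 1 in static cells, the exception being Btg2, and 16 of 16 had one in stretched cells. The share among all genes whose exon reads rose was not counted, so this is no trait of the list. Intron levels were scaled by the library sizes used for exon reads. For Mdm2 the lowest intron level of each group was in library 3.

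**Figure D4:**
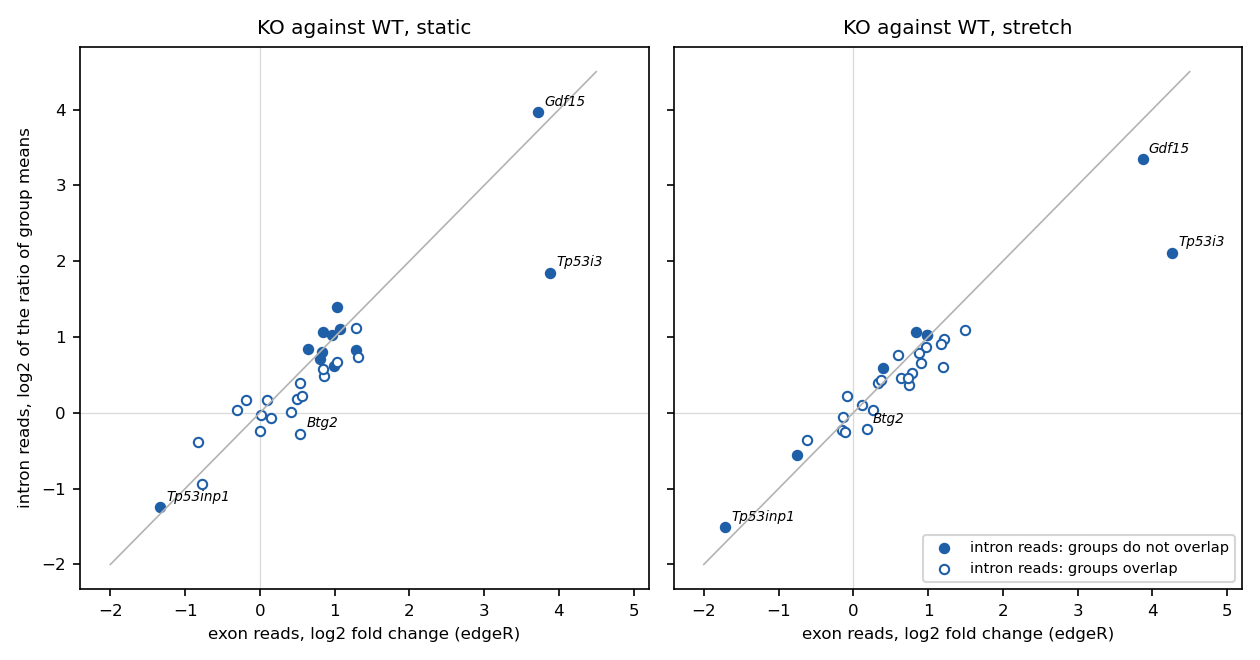
Log2 ratio of mean intron reads in KO and WT (y axis) against the edgeR log2 fold change of exon reads (x axis) for the 30 genes, in static (left) and stretched cells (right); filled points have intron levels that do not overlap between the groups of 3, and the line marks equal change. Gdf15 and Tp53i3 lie at the upper right and Tp53inp1 at the lower left of each panel.

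Of 21 tested genes of upstream kinases, ligases and cofactors, 0 rose and 1 fell in static cells (4.76% against 20.8% of all tested genes), the checkpoint kinase gene Chek2 (-0.36 ± 0.10, FDR 0.0301). Under stretch 0 rose and 1 fell, the ubiquitin ligase gene Cop1 (-0.22 ± 0.07, FDR 0.0478). At an unadjusted p under 0.05 there were 3 such genes in static and 2 in stretched cells (30.4% and 30.8% of all tested genes). With the block 2 rose and 6 fell in static cells (37.6% of all tested genes were called) and 2 rose and 3 fell in stretched cells (37.3%).

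A wider list of other reported p53 targets, 47 tested, held 18 rises (38.3%) and 4 falls (8.51%) in each condition, against 12.1% and 8.66% of all tested genes in static and 11.9% and 8.73% in stretched cells. This list, too, was chosen with earlier results of these data known, so its shares do not test an excess. It had medians of 0.38 in static and 0.19 in stretched cells. Lif, a cytokine of the interleukin-6 family, went from 5.28, 4.39 and 4.58 CPM in WT static to 20.5, 25.4 and 17.9 CPM in KO static (2.16 ± 0.18, FDR 6.65e-06). Sulf2, a heparan sulfatase, rose by 2.06 ± 0.13 (FDR 5.32e-07). Igfbp3, which binds insulin-like growth factors, fell from 10.3, 11.1 and 10.4 CPM to 1.00, 0.491 and 0.859 CPM (-3.76 ± 0.32, FDR 6.14e-06). Tp53i11 fell from 110, 103 and 121 CPM to 18.4, 20.2 and 21.3 CPM (-2.48 ± 0.10, FDR 3.8e-08). The KO libraries of all 4 genes lay clear of the WT libraries. In stretched cells the same 4 genes differed by 2.09, 2.12, -3.01 and -2.48.

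A list of replication and mitotic genes that p53 is known to lower through p21 and the DREAM complex had 24 tested genes. Of these, 4 rose and 2 fell in static cells (25.0% against 20.8% of all tested genes) and 3 rose and 2 fell in stretched cells (20.8% against 20.6%), with medians of -0.08 and -0.13. Tyms, for thymidylate synthesis, rose by 0.65 ± 0.14 (FDR 0.00654), Mcm5, of the replicative helicase, rose by 0.52 ± 0.13 (FDR 0.016), and Bub1b, of the spindle checkpoint, fell by 0.47 on the log2 scale (SE 0.11, FDR 0.011). Rrm2 rose by 0.58 ± 0.12 in static cells (FDR 0.00382), but only 39.6% of its reads were uniquely mapped. With the block 5 rose and 7 fell in static cells (37.6% of all tested genes were called) and 4 rose and 9 fell in stretched cells (37.3%).

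Of 19 BCL2 family and caspase genes, 2 rose and 4 fell in static cells (31.6% against 20.8% of all tested genes) and 4 rose and 3 fell in stretched cells (36.8% against 20.6%), with medians of 0.14 and 0.00. Bid, a BH3-only link from death receptors to mitochondria, went from 16.9, 13.2 and 16 CPM to 40.7, 40.8 and 44.2 CPM (1.44 ± 0.11, FDR 3.41e-06). Bmf, another BH3-only gene, fell by 1.40 on the log2 scale (SE 0.19, FDR 0.000271), and Bak1, the relative of Bax, by 0.57 (SE 0.11, FDR 0.00351). Of 15 other inhibitors of cyclin-dependent kinases and G1 genes, 4 rose and 3 fell in each condition, with medians of 0.05 and -0.03. That is 46.7%, against 20.8% of all tested genes in static and 20.6% in stretched cells. Cdk6, the G1 kinase, rose by 1.43 ± 0.30 (FDR 0.00476), the cyclin gene Ccne1 by 0.65 ± 0.17 (FDR 0.0174), and the cyclin gene Ccnd2 fell by 2.24 on the log2 scale (SE 0.23, FDR 3.11e-05).

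Few of the genes differed between stretched and static cells. The part of the starvation stated for the stretched cells in these differences was not tested. In WT cells 1 of 30 rose and 0 fell (3.33% against 0.742% of all tested genes), with a median log2 fold change of 0.05 against 0.01 over all genes. The gene was Btg2 (ENSRNOG00000003300, chromosome 13 from 50913179 to 50916982), which went from 19.7, 19 and 22.5 CPM to 31.8, 30 and 33 CPM. The groups did not overlap (0.63 ± 0.09, FDR 0.0127), but the call was lost when WT static 1 or 2 or any WT stretch library was left out (highest FDR 0.0797). In KO cells Btg2 went from 28.4, 30.7 and 29.9 CPM to 32.7, 37.2 and 37.2 CPM, again without overlap, and did not pass (0.27 ± 0.09, FDR 0.403).

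The other genes named in every comparison moved little with stretch in WT cells. Mdm2 differed by -0.03 ± 0.08 (FDR 0.993), Cdkn1a by 0.14 ± 0.12 (FDR 0.865) and Ccng1 by 0.10 ± 0.09 (FDR 0.874). Gdf15 differed by 0.23 ± 0.25 (FDR 0.918), Cdkn2a by 0.17 ± 0.23 (FDR 0.948) and Bax by 0.27 ± 0.18 (FDR 0.773). Bax alone of these passed with the block (FDR 0.023), where 6.37% of all genes did.

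In KO cells 0 of 30 genes passed in edgeR (0.796% of all tested genes did), 4 had an unadjusted p under 0.05 (7.78% of all), and DESeq2 called 0 (1.98% of all). Mdm2 differed by -0.00 ± 0.08 (FDR 1.0), Cdkn1a by 0.07 ± 0.12 (FDR 1.0), Ccng1 by 0.04 ± 0.09 (FDR 1.0) and Gdf15 by 0.38 ± 0.20 (FDR 0.764). Cdkn2a differed by 0.07 ± 0.23 (FDR 1.0) and Bax by 0.12 ± 0.18 (FDR 1.0). With the block 3 genes passed (4.42% of all genes): Eda2r was higher (0.37, FDR 0.0478), and Fas (-0.28, FDR 0.0427) and Gadd45a (-0.40, FDR 0.0241) were lower. Gadd45a went from 76.1, 68.5 and 87.9 CPM in KO static to 53.3, 57.7 and 65.3 CPM in KO stretch, without overlap. In libraries 1 and 2 alone, 3 genes passed in WT cells (3.54% of all genes), Btg2 and Tp53inp1 higher and Fas lower, and 2 in KO cells (2.94%), Eda2r higher and Gadd45a lower.

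**Figure D5:**
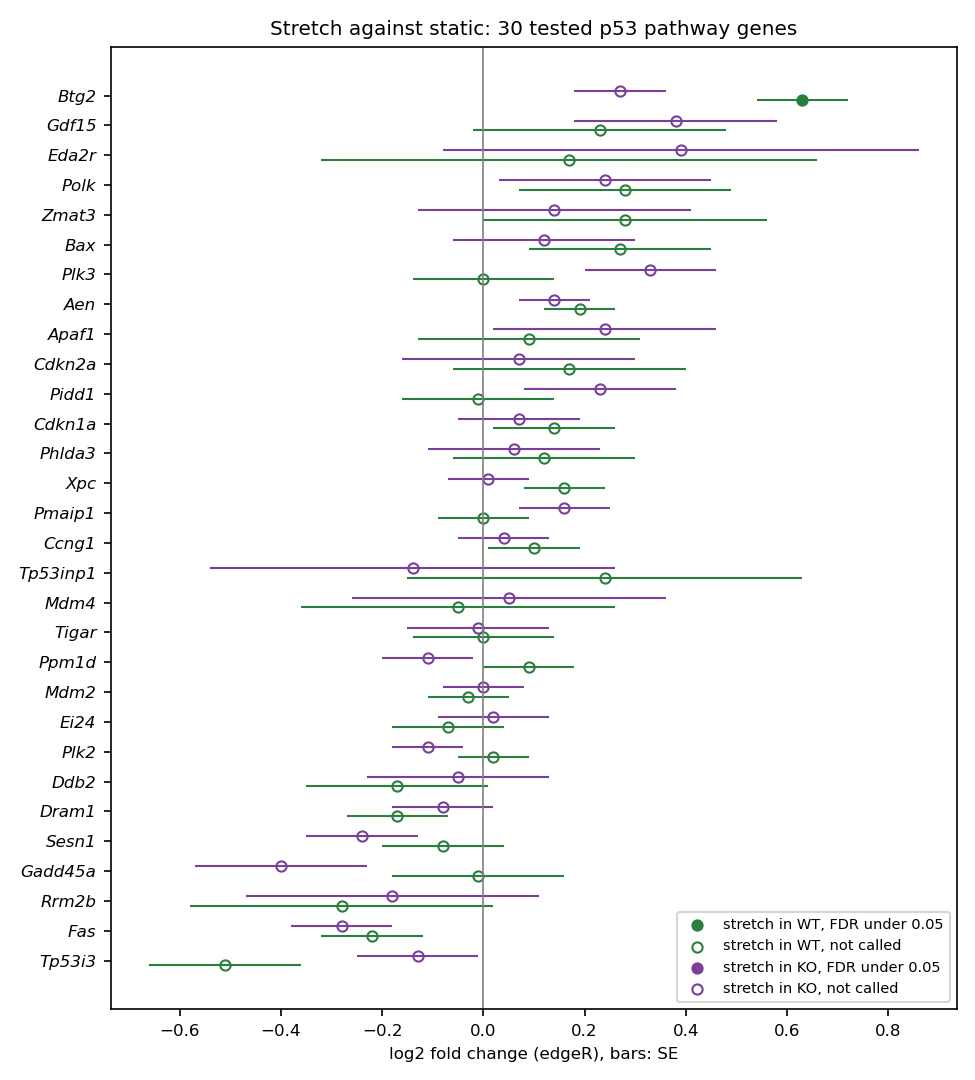
Log2 fold change of stretched against static cells (x axis; bars are SE, 3 libraries per group) for the 30 genes in WT (green) and KO cells (purple), filled at edgeR FDR under 0.05. All points lie between -0.51 and 0.63, and Btg2 in WT is the only filled point.

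Of the wider lists, the cyclin D1 gene Ccnd1 was lower in stretched than in static WT cells. It went from 403, 371 and 395 CPM to 231, 237 and 284 CPM (-0.64 ± 0.09, FDR 0.0101). In KO cells Tgfa, a ligand of the epidermal growth factor receptor, fell by 0.82 on the log2 scale (SE 0.12, FDR 0.0133).

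The difference between the genotypes' responses to stretch was tested as an interaction. It called 0 of the 30 genes (0.0% of all tested genes), with log2 differences from -0.39 to 0.38. Btg2 alone of the 30 had an unadjusted p under 0.05, at -0.36 ± 0.13 (p 0.0197, FDR 1.0), as had 336 of all tested genes (2.27%). DESeq2 called 0 of the 30 and 0.0607% of all. Mdm2 differed by 0.02 ± 0.11, Cdkn1a by -0.08 ± 0.17, Gdf15 by 0.15 ± 0.32, Ccng1 by -0.06 ± 0.13, Bax by -0.16 ± 0.26 and Cdkn2a by -0.10 ± 0.32, each at FDR 1.0. Differences of the size of these errors were not detectable with 3 libraries a group.

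The library number moved with several of the genes. Library 3 was above the mean of libraries 1 and 2 in 4 of 4 groups for 8 of the 30 genes. For another 8 it was below in 4 of 4. Over all 14825 tested genes these counts were 4094 and 4347, which are like shares, so this is no trait of the list. Library 3 was lowest for Eda2r (-1.22 on the log2 scale), Tp53inp1 (-1.01), Mdm4 (-0.78), Zmat3 (-0.67) and Rrm2b (-0.64). It was highest for Cdkn2a (0.52), Gdf15 (0.42), Bax (0.41) and Phlda3 (0.39). The KO to WT ratio within each number had the same sign in all 3 numbers for most of the 30 genes: 22 were higher and 5 lower in static cells, and 23 were higher and 7 lower in stretched cells. These counts include genes that were not called, and the share over all tested genes was not counted, so they have no background to stand against.

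The authors' deposited table gave 17 of these genes as higher and 3 as lower in KO static cells at its own FDR under 0.05 (6.77% and 4.02% of its 22081 genes). In KO stretched cells the authors' deposited table gave 16 and 3 (6.96% and 4.12%). In the authors' deposited table Eda2r was called in static cells and Sesn1 was not. For stretch the authors' deposited table called 0 of these genes in either genotype.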

How the data were processed

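Poly(A) RNA was sequenced in 12 libraries (paired reads of 36 bases, NextSeq 500), and per the labels the authors mapped the reads to Rnor_6.0 and quantified genes with CLC Genomics Workbench 12.0. Whole-number exon read counts per gene, as deposited, include multi-mapped reads. The deposited RPKM values are exon reads scaled by exon length in kilobases and by 1000000 mapped reads. The deposited table's fold change score and FDR p-value columns are the authors' own comparisons. The strand setting, read trimming and annotation version are not given in the sources used here.

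Counts were tested with edgeR 4.0.16 (R 4.3.3): filterByExpr with minimum count 10, TMM scaling, a mean for each of the 4 groups, quasi-likelihood test with 8 residual degrees of freedom, and Benjamini-Hochberg adjustment over 14825 genes (FDR, threshold 0.05). CPM values are TMM-scaled. The test was checked on simulated data. Alternatives were a replicate block, 2 other scalings, DESeq2 1.42.0, limma 3.58.1 on log2(RPKM + 0.1), no filter, unique reads, libraries left out in turn, and libraries 1 and 2 alone. Depth was 16766965 to 38024110 exon reads.

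Library numbers were taken from the sample titles, and deviations from group means were correlated between libraries of different groups. For number 3, r was 0.432 to 0.581, above the range between different numbers (-0.427 to 0.308). For number 1 (0.181 to 0.261) and number 2 (0.135 to 0.28) it lay within that range, so only number 3 showed pairing by number. The block lowered the common dispersion from 0.0437 to 0.00961 and left 6 residual degrees of freedom.

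The genes and lists were chosen with earlier results of these data known. Called genes are named, with up to 8 of the largest changes in full. Mdm2, Cdkn1a, Gdf15, Ccng1, Bax and Cdkn2a are named throughout, and a wider list names up to 4 called genes. Some genes these rules pick are left out and are not reported here.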

Additional observations from a re-analysis of the deposited data

How the results depend on the processing

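The count of genes called in KO against WT was 18 to 21 in static and 15 to 19 in stretched cells when 1 library was left out, against 20 and 19. Under each of 20 alternatives 17 of the 20 static calls held, the exceptions being Tp53inp1, Pidd1 and Cdkn2a, and 14 of the 19 stretched calls held, the exceptions being Eda2r, Phlda3, Gadd45a, Pidd1 and Cdkn2a. With the replicate block, stretch called 2 genes in WT instead of 1 and 3 in KO instead of 0. With libraries 1 and 2 alone these were 3 and 2, limma on RPKM called 0 in WT, and leaving out 1 library gave 0 to 1 in WT and 0 in KO. The block made the further KO calls named above (21 higher and 5 lower in static, 19 and 3 in stretched cells, against 37.6% and 37.3% of all genes) and, among the 30 genes, removed none of the calls made without it. The interaction called 0 of them in each alternative. Thbs1 stayed between -2.41 and -2.11 in static and -2.11 and -1.75 in stretched cells without 1 library. No result reversed. For the called genes and the 6 genes named throughout, 1148 values over the 20 alternatives stayed on their side of the threshold, 44 lost a call and 8, all of them Bax, gained one. The cause was not tested. Perp, at 0 to 12 exon reads per library, was too shallow to test.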
